A study of Mus musculus with 4 samples.

Results

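Arg1, Nos2, Chil3 and Marco are 4 genes known from mouse macrophages, and they are described here in the inflamed distal colon of mice lacking Elf4, against wild-type mice. The members were chosen by gene symbol from a table of 4121 listed genes, and all 4 were in it. Each of the 4 differed between the genotypes in the results known when they were chosen, so their levels and folds are given as a description, with no test. Arg1, Chil3 and Marco were higher in the knockout colon by 30.4-fold to 49.5-fold, while Nos2 was 4.03-fold lower.

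The mice were C57BL/6 animals aged 8 weeks. The knockout group was Elf4-KO mice (Elf4-/-) given 3% dextran sulfate sodium (DSS), an agent that damages colon epithelium and brings on colitis, with inflamed distal colon taken on day 6. The other group was wild-type (WT) mice given the same DSS treatment, with the same tissue taken on the same day, so both groups had colitis and no untreated colon is part of the comparison. Each genotype had 2 samples, and the labels do not say whether these came from separate animals. Elf4 encodes an Ets family transcription factor. How the Elf4 allele was made, and whether every cell type lost it, was not given in the sources used here.

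Gene expression was measured by RNA sequencing of the whole tissue and is given as FPKM, a fragment count scaled by transcript length and library size. The authors' deposited table pools the samples of a genotype into 1 FPKM value. The spread between samples and the read depth are therefore unknown, and no value below carries an SD or n. The table holds only genes that passed the authors' call, with q of at most 0.05 and a difference of at least 2-fold. "Rose" and "fell" below rest on that call, and genes that it left out are not analysed here. Where no q is printed, a named gene had q = 0.000372, the lowest q the authors' deposited table holds. Of the listed genes, 1980 (48.0%) were higher and 2141 (52.0%) lower in the knockout, with a median log2 ratio of -0.76 over all of them. Elf4 itself had 3.51 FPKM in the knockout and 16.4 FPKM in WT. Colon genes were present in both groups, with Car1, a colonocyte carbonic anhydrase gene, at 271 FPKM in the knockout and 1115 FPKM in WT. In bulk tissue, fewer cells of a type and less RNA per cell cannot be told apart.

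Macrophages can use the amino acid arginine in competing ways. Arginase splits it into ornithine and urea, and ornithine feeds the synthesis of polyamines and proline. Inducible nitric oxide synthase oxidizes it to nitric oxide and citrulline, a route used against microbes. In mouse macrophages interleukin-4 and interleukin-13 are known to induce Arg1, and interferon gamma together with microbial products is known to induce Nos2. Chil3 (also called Ym1) encodes a secreted chitinase-like lectin with no chitinase activity, and Marco encodes a collagen-like class A scavenger receptor that binds bacteria and particles. Several of these genes are also made outside macrophages. In the mouse, Chil3 is also made by developing neutrophils, and Nos2 also by colon epithelium.

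The 4 genes lie on 4 chromosomes, in GRCm38 coordinates of the deposited table counted from 1, and all are protein-coding. Arg1 (ENSMUSG00000019987) is at chr10:24915208-24927470 on the minus strand, with 8 exons in its GENCODE M21 transcript. Nos2 (ENSMUSG00000020826) is at chr11:78920787-78960254 on the plus strand, with 27 exons. Chil3 (ENSMUSG00000040809) is at chr3:106147554-106167564 on the minus strand, with 11 exons. Marco (ENSMUSG00000026390) is at chr1:120474538-120505024 on the minus strand, with 17 exons. No other annotated gene overlapped any of these 4 annotated loci. The deposited loci equal the annotated ones for Nos2, Chil3 and Marco, and for Arg1 they differ by 13 bases at the start and 14 at the end.

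Chil3 has a near-identical neighbor, Chil4, at chr3:106201490-106219507, and this bears on its value. Their coding sequences, of 1194 and 1206 bases, were identical at 1139 of 1194 aligned bases (95.4%). Of the 1490 windows of 50 bases in the Chil3 transcript, 438 (29.4%) also occurred exactly in a transcript of Chil4 or of Gm6522. The same count was 0 for Arg1, Nos2 and Marco. The longest run that both coding sequences share spans 136 bases, from position 987 to 1122 of the Chil3 coding sequence, and it is shown because reads lying wholly within it cannot be assigned to either gene.

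Chil3 and Chil4: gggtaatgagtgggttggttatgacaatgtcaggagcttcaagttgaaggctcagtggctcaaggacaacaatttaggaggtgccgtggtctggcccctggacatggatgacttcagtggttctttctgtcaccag

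Chil4 was not in the table, and how the authors' counting split such reads was not given in the sources used here, so the Chil3 value may hold Chil4 reads.

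The promoters of genes that rose together are shown as context, since Elf4 is an Ets factor and Ets factors bind sites around GGAA. RefSeq (GRCm38.p6) promoter windows matched 2 of the 4 members, Chil3 and Marco, and Chil4 is added for its likeness. Each sequence is the 250 bases before the gene's RefSeq start, read 5′ to 3′ on the gene's minus strand, and capitals mark GGAA or its reverse complement TTCC. Chil3 is from chr3:106167565-106167814, Marco from chr1:120505025-120505274 and Chil4 from chr3:106219480-106219729. In the GENCODE M21 annotation the start of Chil4 lies 28 bases upstream of its RefSeq start, so the last 28 bases of its window are inside the GENCODE gene.

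Chil3: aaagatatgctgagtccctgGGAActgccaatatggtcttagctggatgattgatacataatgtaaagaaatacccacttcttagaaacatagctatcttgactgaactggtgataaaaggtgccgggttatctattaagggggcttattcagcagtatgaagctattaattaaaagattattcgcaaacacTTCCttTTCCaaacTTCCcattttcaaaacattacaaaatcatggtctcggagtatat
Marco: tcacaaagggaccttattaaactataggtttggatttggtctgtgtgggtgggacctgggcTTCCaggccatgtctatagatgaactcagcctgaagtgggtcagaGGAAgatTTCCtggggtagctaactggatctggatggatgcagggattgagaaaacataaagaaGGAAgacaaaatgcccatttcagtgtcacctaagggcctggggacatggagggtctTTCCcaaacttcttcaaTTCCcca
Chil4: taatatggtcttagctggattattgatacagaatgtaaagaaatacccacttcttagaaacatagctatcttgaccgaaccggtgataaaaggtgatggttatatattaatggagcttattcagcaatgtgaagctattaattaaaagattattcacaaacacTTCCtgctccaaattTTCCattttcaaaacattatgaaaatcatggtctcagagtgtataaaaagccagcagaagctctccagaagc

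The Chil3 window held 4 matches to GGAA on both strands together, the Marco window 6 and the Chil4 window 2. Of 32841 promoter windows of this length, 93.5% held at least 1 such match, so its presence sets none of them apart. The longer letters GAGGAA, which contain GGAA, occurred 1 time in the Marco window, 0 times in that of Chil3 and in 23.3% of all windows. TTCNNNGAA, a pattern known for Stat factors, occurred 1 time in the windows of Chil3 and of Chil4, 0 times in that of Marco and in 7.02% of all windows. CCGGAA, which also contains GGAA, occurred in none of the 3 windows and in 12.03% of all windows. A match is a description of these letters, not a binding site.

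Arg1, which encodes the cytosolic arginase, had 67.1 FPKM in the knockout colon and 1.36 FPKM in WT. The ratio was 49.5-fold, or 4.85 on the log2 scale after adding 1 FPKM to both values. Nos2 had 9.75 FPKM in the knockout and 39.3 FPKM in WT, so 24.8% of the WT level was left, with a log2 ratio of -1.91. Chil3 had 260.2 FPKM in the knockout and 8.55 FPKM in WT, a ratio of 30.4-fold and a log2 ratio of 4.77. Marco had 57.98 FPKM in the knockout and 1.89 FPKM in WT, a ratio of 30.7-fold and a log2 ratio of 4.35. The authors' deposited table gives all 4 genes p = 5e-05 and q = 0.000372, the smallest values it holds, which 54.2% of the listed genes share.

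The order of the 4 levels differed between the genotypes. In the knockout, Chil3 was highest, followed by Arg1, Marco and Nos2. In WT, Nos2 was highest, followed by Chil3, Marco and Arg1. The gap between Arg1 and Marco was small in either genotype, at 67.1 against 57.98 FPKM in the knockout and 1.36 against 1.89 FPKM in WT, and with no spread between samples these neighbors cannot be separated. Within the table, the knockout level of Chil3 exceeded that of 96.7% of listed genes, against 46.5% for its WT level. For Arg1 the same shares were 88.3% in the knockout and 14.1% in WT, and for Marco 86.7% in the knockout and 18.3% in WT. The Nos2 level exceeded that of 53.4% of listed genes in the knockout and 76.3% in WT.

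**Figure D1:**
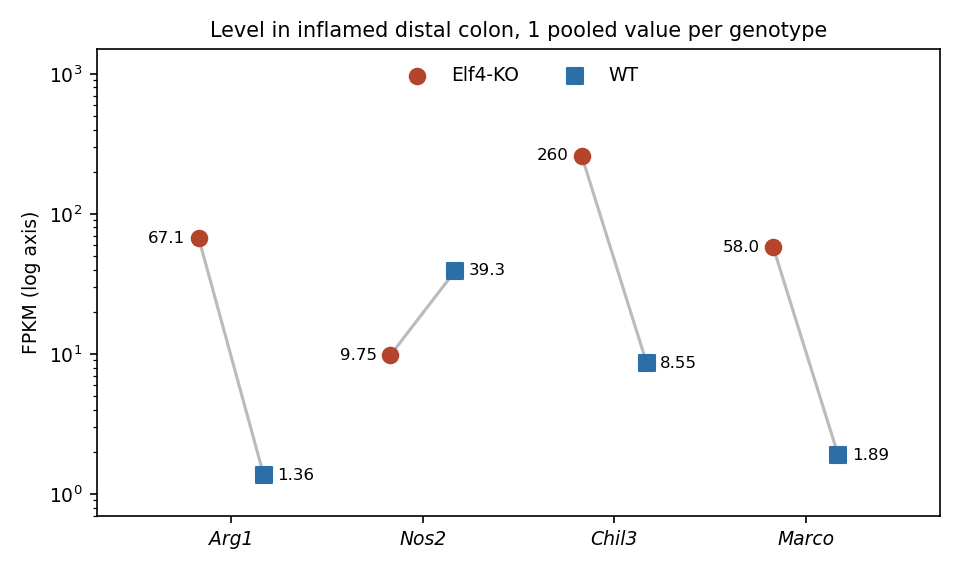
FPKM of Arg1, Nos2, Chil3 and Marco on a log axis, with Elf4-KO as circles and WT as squares, each 1 value per genotype with no error bar. Arg1, Chil3 and Marco lie at 58.0 to 260.2 FPKM in the knockout and 1.36 to 8.55 FPKM in WT, while Nos2 lies at 9.75 FPKM in the knockout and 39.3 FPKM in WT.

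Among all listed genes with a level above 0 in both genotypes, Arg1 had the rise of rank 8 by fold, Marco of rank 13 and Chil3 of rank 14. A rise of at least 30-fold was found for 14 genes, 0.340% of those listed, and 3 of them were members. Nos2 had the fall of rank 961 by fold among the 2096 genes that fell and were above 0 in both genotypes. Falls of at least 4-fold, or to a listed 0, were found for 1011 genes (24.5%), and Nos2 lies just past that limit. Since the members were chosen from these values, nothing is read from their ranks.

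**Figure D2:**
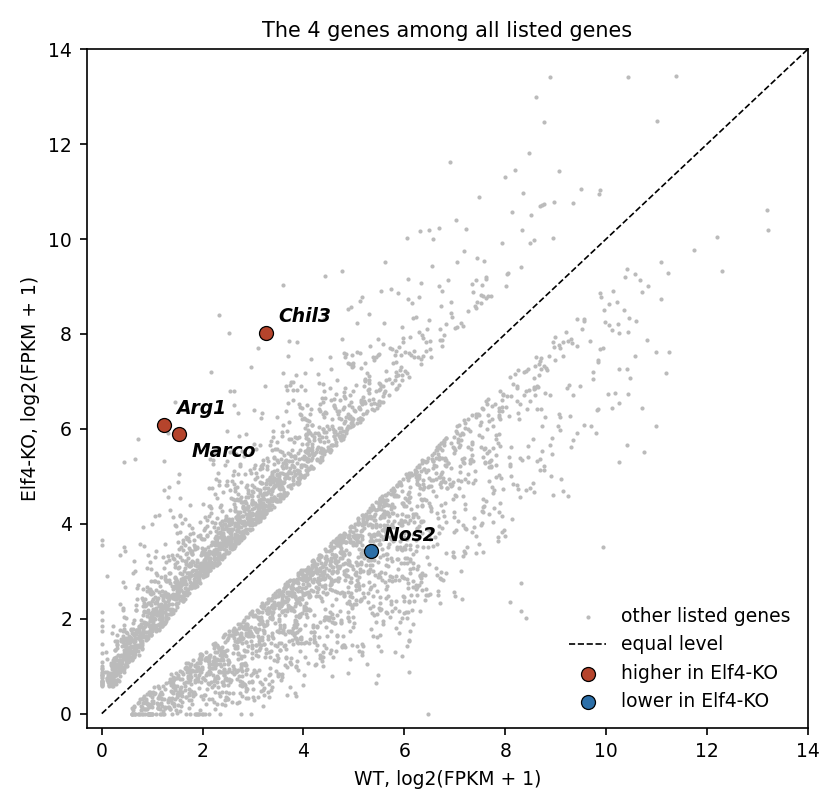
Level of every listed gene in WT (horizontal) and Elf4-KO (vertical) as log2(FPKM + 1), each point 1 gene, with the dashed line marking equal level and the empty band the 2-fold limit of the table. Arg1, Marco and Chil3 lie at the upper left edge of the cloud, with log2 ratios of 4.85, 4.35 and 4.77, and Nos2 lies inside the lower cloud, with a log2 ratio of -1.91.

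Because FPKM is scaled by transcript length, arginase and nitric oxide synthase can be set side by side within a genotype. The knockout colon had 6.88 times as much Arg1 as Nos2, while in WT the Arg1 level was 0.0345 of the Nos2 level. The ratio of Arg1 to Nos2 was thus 199-fold higher in the knockout. A pseudocount of 1 FPKM on both genes lowered this to 108-fold, since Arg1 in WT was near 1 FPKM. Over both arginases and all 3 nitric oxide synthases, the summed arginase level was 104 FPKM in the knockout and 4.97 FPKM in WT, and the summed synthase level was 21.2 FPKM in the knockout and 44.3 FPKM in WT. The ratio of the sums was 4.92 in the knockout and 0.112 in WT, a difference of 43.9-fold. Fragments from the same tissue set these ratios, and they do not show that the genes are expressed in the same cells.

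The other arginase and the other synthases were listed too. Arg2, the mitochondrial arginase, had 37.1 FPKM in the knockout and 3.61 FPKM in WT, a 10.3-fold rise with q = 0.0209 in the authors' deposited table. The deposited locus of Arg2 runs 16.4 kb past the annotated gene, over Vti1b, so reads of that neighbor may enter its value. Arg1 made up 64.4% of the summed arginase FPKM in the knockout and 27.3% in WT, so the higher value was that of Arg1 in the knockout and of Arg2 in WT. With no spread between samples, and with reads of Vti1b possibly in the Arg2 value, their order in either genotype is not established. Nos1, the neuronal synthase, had 5.66 FPKM in the knockout and 2.16 FPKM in WT. Nos3, the endothelial synthase, had 5.77 FPKM in the knockout and 2.86 FPKM in WT (q = 0.00992 in the authors' deposited table). The Nos3 locus in the table runs 7.7 kb past the annotated gene. Nos2 made up 46.0% of the summed synthase FPKM in the knockout and 88.7% in WT, and of the 3 synthases it alone fell.

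Of 16 genes around arginine supply, 6 were listed, 5 higher and 1 lower, while 48.0% of all listed genes were higher. Those that rose did so by less than either arginase. Nothing is read from this, since Arg1 was chosen from these values and the Arg2 value may hold Vti1b reads. Of 8 genes of arginine synthesis and the urea cycle, 1 was listed. This was Ass1, which encodes the enzyme that turns citrulline back toward arginine, with 51.7 FPKM in the knockout and 23.9 FPKM in WT. Of 8 transporter genes for arginine and other basic amino acids, 5 were listed, 4 higher and 1 lower, with a median log2 ratio of 1.14. The cationic amino acid transporter gene Slc7a2 had 4.62 FPKM in the knockout and 1.87 FPKM in WT (q = 0.00312 in the authors' deposited table). Slc3a2, the shared heavy chain of several amino acid transporters, had 114 FPKM in the knockout and 45.01 FPKM in WT. Its partner Slc7a6 had 16.5 FPKM in the knockout and 6.70 FPKM in WT (q = 0.00128 in the authors' deposited table). The mitochondrial carrier gene Slc25a29 had 3.48 FPKM in the knockout and 1.03 FPKM in WT (q = 0.00753 in the authors' deposited table). Slc7a7, another partner of Slc3a2, fell to 12.02 FPKM in the knockout, against 32.02 FPKM in WT (q = 0.00773 in the authors' deposited table), and its deposited locus runs 8.6 kb past the annotated gene.

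Few genes of ornithine use were listed. Of 14 genes for ornithine, polyamines and proline, 3 were listed, 1 higher and 2 lower. Oaz2, an inhibitor of ornithine decarboxylase, had 84.3 FPKM in the knockout and 33.8 FPKM in WT. Amd1, for the aminopropyl donor of polyamine synthesis, fell to 20.1 FPKM in the knockout, against 50.4 FPKM in WT. Pycr1, for proline synthesis, fell to 1.56 FPKM in the knockout, against 4.07 FPKM in WT (q = 0.0389 in the authors' deposited table). Odc1, the ornithine decarboxylase gene itself, was not in the table.

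Genes that supply or restrain nitric oxide synthases fell alongside Nos2. Of 10 such genes, 6 were listed and all 6 were lower, with a median log2 ratio of -1.75. Of all listed genes, 52.0% were lower. For synthesis of the cofactor tetrahydrobiopterin, Gch1, its first enzyme, had 16.9 FPKM in the knockout and 36.1 FPKM in WT. Pts, the next enzyme, had 20.5 FPKM in the knockout and 48.8 FPKM in WT (q = 0.00128 in the authors' deposited table). Gchfr, a feedback regulator of Gch1, had 1.92 FPKM in the knockout and 13.6 FPKM in WT (q = 0.00671 in the authors' deposited table). Ddah1, which breaks down natural synthase inhibitors, fell 5.28-fold to 9.24 FPKM, and Nostrin, a trafficking partner of the endothelial synthase, fell 5.21-fold to 11.4 FPKM.

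**Figure D3:**
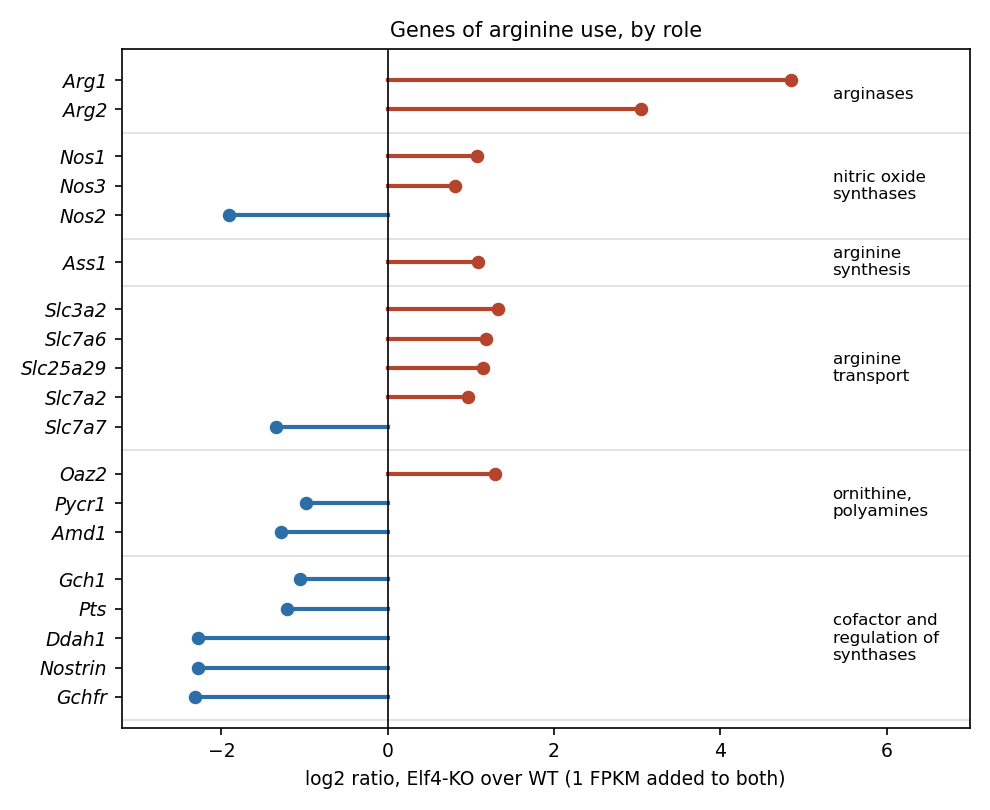
Log2 ratio of Elf4-KO over WT, after adding 1 FPKM to both values, for genes of arginine use, grouped by role, with bars to the right for genes higher in the knockout and to the left for genes lower in it. Arg1 and Arg2 have the longest bars to the right, Nos2 points left at -1.91 while Nos1 and Nos3 point right, and the 5 cofactor and regulator genes shown point left.

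Of all listed genes, 48.0% were higher. Marco was 1 of 11 listed scavenger receptor genes out of 20, and all 11 were higher in the knockout, with a median log2 ratio of 1.94. The count and the median include Marco, which was chosen from these values. Its rise was 30.7-fold, while those of the other 10 ran from 2.01-fold for Scarb2 to 9.998-fold for Scara5. Scara5, a class A receptor that binds ferritin, had 56.4 FPKM in the knockout and 5.64 FPKM in WT. Cd163, the macrophage receptor for haptoglobin and hemoglobin, had 43.5 FPKM in the knockout and 5.34 FPKM in WT. Mrc1, the macrophage mannose receptor, had 77.2 FPKM in the knockout and 14.4 FPKM in WT. In WT the Marco level lay below those of 9 of these 10 receptors, and in the knockout it was exceeded by Scarb2, Cd36 and Mrc1. Msr1, a class A receptor like Marco and named after its values were seen, rose 4.05-fold to 55.2 FPKM. Not in the table were Olr1, Stab1, Stab2, Cxcl16, Scarf1, Scarf2, Megf10, Clec7a and Cd5l. Some of these receptors are also made outside macrophages, such as Scara5 in stromal cells and Scarb1 in epithelium.

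Arg1 and Chil3 belong to the genes known from alternative activation of mouse macrophages. Of 17 such genes, 7 were listed and all 7 were higher in the knockout, with a median log2 ratio of 2.81. The count and the median include Arg1 and Chil3, which were chosen from these values. Of all listed genes, 48.0% were higher. Cd163 and Mrc1 are also counted among the scavenger receptors, so the lists are not separate. Besides Arg1, Chil3, Cd163 and Mrc1, Il10, an anti-inflammatory cytokine gene, had 14.2 FPKM in the knockout and 0.755 FPKM in WT. The remaining listed genes, named after their values were seen, were Clec10a, a lectin gene, which rose 3.12-fold, and Alox15, a lipoxygenase gene, which was 2.90-fold higher, with q = 0.0267 in the authors' deposited table. Retnla, Mgl2, Ccl17, Ccl22, Ccl24, Pdcd1lg2, Tgm2, Egr2, Irf4 and Ear2, which are known from the same state, were not in the table, so the rise covers part of the list. Of 7 chitinase and chitinase-like genes, Chil3 alone was listed.

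The signals known to induce these genes were sparsely listed. Of 14 genes of interleukin-4 and interleukin-13 signalling, 3 were listed, and the cytokine genes Il4 and Il13 and the factor gene Stat6 were not among them. The receptor gene Il4ra had 102.5 FPKM in the knockout and 46.9 FPKM in WT. The transcription factor genes Klf4 and Pparg, both also known from epithelium, fell to 27.2 FPKM in the knockout, against 122 FPKM in WT, and to 11.2 FPKM in the knockout, against 33.7 FPKM in WT. Of 10 genes for candidate regulators of Arg1 transcription, 6 were listed, 3 higher and 3 lower. Klf4 and Pparg are also counted among these lower regulators, so the lists are not separate. Cebpb had 386 FPKM in the knockout and 105.4 FPKM in WT, but its deposited locus runs 135.6 kb past the annotated gene. Nfil3 had 51.7 FPKM in the knockout and 12.97 FPKM in WT. Spi1, the myeloid factor PU.1, had 49.7 FPKM in the knockout and 23.9 FPKM in WT (q = 0.00128 in the authors' deposited table). Ppard fell to 17.5 FPKM in the knockout, against 46.7 FPKM in WT.

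Nos2 belongs to the genes known from classical activation, and these moved both ways. Of 20 such genes, 13 were listed, 8 higher and 5 lower in the knockout, with a median log2 ratio of 1.30. The 5 lower genes include Nos2, which was chosen from these values. Of all listed genes, 48.0% were higher. Ptgs2, an inducible prostaglandin synthase gene, had 230.9 FPKM in the knockout and 12.2 FPKM in WT. Il6 had 118 FPKM in the knockout and 11.6 FPKM in WT, and Fpr2, a formyl peptide receptor gene whose deposited locus runs 77.7 kb past the annotated gene, had 130.6 FPKM in the knockout and 24.3 FPKM in WT. The chemokine gene Cxcl9 fell to 3.07 FPKM in the knockout, against 51.3 FPKM in WT. The other genes that fell besides Nos2, named after their values were seen, were Cxcl10 (3.73-fold, over a deposited locus that runs 65.7 kb past the annotated gene), Cd38 (3.34-fold) and Gbp2 (3.32-fold). The fall of Nos2, 4.03-fold, lay between that of Cxcl9 and those of these genes. The other genes that rose, also named after their values were seen, were Il12a, Il1b, Cd80, Acod1 and Cd86, by 2.09-fold to 5.21-fold. Their q in the authors' deposited table was 0.0198 for Il12a, 0.000694 for Cd80 and 0.00429 for Cd86.

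Genes of interferon gamma signalling fell with Nos2. Of 10, 6 were listed and all 6 were lower in the knockout, with a median log2 ratio of -1.68. Of all listed genes, 52.0% were lower. The cytokine gene Ifng had 0.272 FPKM in the knockout and 4.51 FPKM in WT (q = 0.0204 in the authors' deposited table). The receptor chain gene Ifngr2 had 23.5 FPKM in the knockout and 47.9 FPKM in WT. Irf1, a transcription factor gene needed for Nos2 induction in mouse macrophages, had 49.96 FPKM in the knockout and 162 FPKM in WT. Socs1, a feedback inhibitor, had 12.8 FPKM in the knockout and 42.9 FPKM in WT, and Ciita, the class II regulator, had 2.25 FPKM in the knockout and 9.37 FPKM in WT, over a deposited locus that runs 14.6 kb past the annotated gene. T and NK cell markers, from cells that make interferon gamma, were lower in the same tissue, with 8 of 12 listed, all 8 lower and a median log2 ratio of -1.39. Their part in the fall of Nos2 was not tested.

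**Figure D4:**
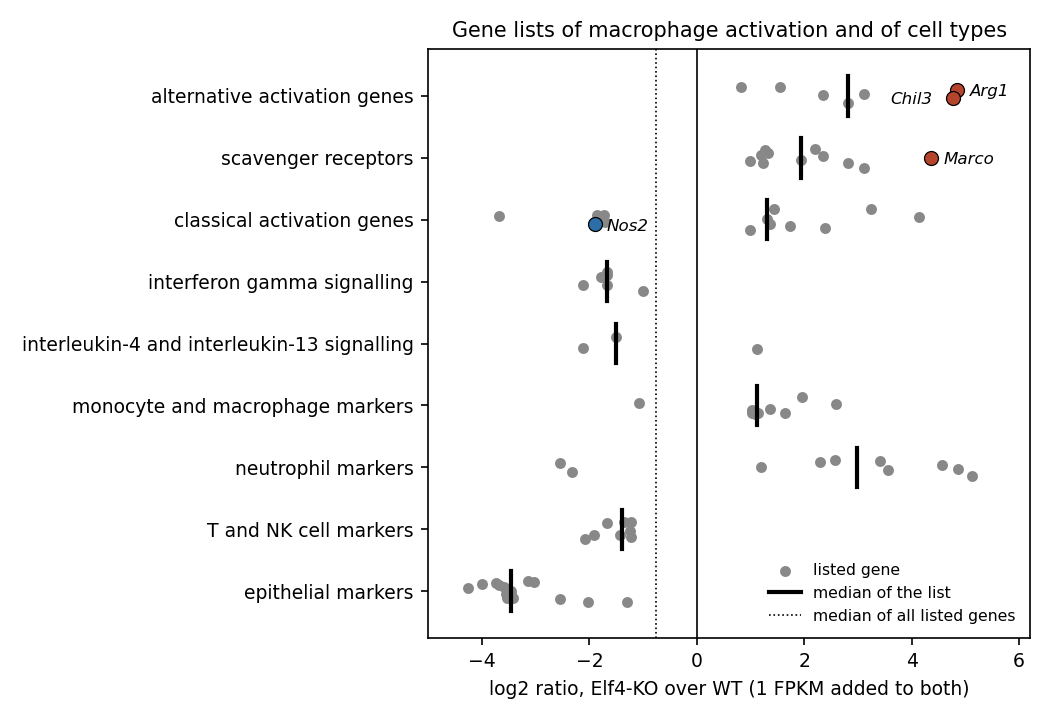
Log2 ratio of Elf4-KO over WT, after adding 1 FPKM to both values, for each listed gene of 9 lists, with thick bars at each list's median and a dotted line at the median of all listed genes, -0.76. Genes of alternative activation and scavenger receptors lie right of 0, interferon gamma signalling lies left of it, and classical activation genes lie on both sides, with Nos2 among the 5 on the left.

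Markers of several cell types moved in the same tissue, and their sums are given beside the members. Of all listed genes, 48.0% were higher. Of 20 monocyte and macrophage markers, 10 were listed, 9 higher and 1 lower, with a median log2 ratio of 1.11. Their summed level was 641 FPKM in the knockout and 221 FPKM in WT, a ratio of 2.90. The largest rise among them was that of Itgam, an integrin gene also made by neutrophils, at 6.41-fold over a deposited locus that runs 9.7 kb past the annotated gene, and Cd68 rose 2.62-fold and Cd14 3.16-fold. The rises of Arg1, Chil3 and Marco were larger than that of any listed macrophage marker. Since the members were chosen from these values, nothing is read from this. The marker that fell, named after its values were seen, was Timd4, with 1.45 FPKM in the knockout and 4.18 FPKM in WT (q = 0.00288 in the authors' deposited table). No listed marker of this list was at 0, and the defining genes Adgre1, Csf1r and Lyz2 were not in the table, nor were Ly6c2, Ccr2, Cx3cr1, C1qa, C1qb, C1qc and Itgax. Set against Cd68 within each genotype, Arg1 was at 0.604 of its level in the knockout and 0.0320 in WT, and Marco at 0.522 in the knockout and 0.0446 in WT. Chil3 was at 2.34 times the Cd68 level in the knockout and 0.202 in WT. Nos2 was at 0.0878 of the Cd68 level in the knockout and 0.928 in WT.

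Neutrophil markers moved both ways. Of all listed genes, 48.0% were higher. Of 14 markers, 10 were listed, 8 higher and 2 lower, with a median log2 ratio of 2.99 and none at 0. Their summed level was 4096 FPKM in the knockout and 1196 FPKM in WT. S100a8 and S100a9 held most of the knockout sum, and Ly6g, which fell, held most of the WT sum. The granule genes Ngp and Mmp8 were higher by 108-fold and 54.0-fold, more than Arg1, with q = 0.000998 for Ngp in the authors' deposited table. Retnlg rose 24.5-fold. Of the markers that fell, named after their values were seen, Ly6g had 145.7 FPKM in the knockout and 854 FPKM in WT, and Ltf had 2.05 FPKM in the knockout and 14.4 FPKM in WT. Camp, Elane, Mpo and Cd177 were not in the table. Against S100a9, a neutrophil and monocyte gene, the Arg1 level was 0.0356 in the knockout and 0.00764 in WT, the Chil3 level 0.138 in the knockout and 0.0481 in WT, and the Marco level 0.0307 in the knockout and 0.0106 in WT. The part of neutrophils in the rise of these genes was not tested.

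Of 15 epithelial markers, 14 fell by more than the 4.03-fold of Nos2, and Cldn4, a tight junction gene, fell by less, 2.60-fold. Of the 15 markers, 15 were listed and all 15 were lower in the knockout, by 2.60-fold to 19.4-fold, with a median log2 ratio of -3.46 and none at 0. Their summed level was 976 FPKM in the knockout and 10298 FPKM in WT. The median is the value of Vil1, named after its values were seen, whose deposited locus runs 152.7 kb past the annotated gene. The deposited loci of Muc13 and Cldn3 run 109.6 kb and 13.9 kb past theirs. Of all listed genes, 52.0% were lower and 48.0% higher. Nos2, also made by colon epithelium, was at 0.118 of the Epcam level in the knockout and 0.0438 in WT. It was at 0.0359 of the Car1 level in the knockout and 0.0352 in WT, nearly the same, and at 0.865 of the Cldn4 level in the knockout and 1.34 in WT, lower in the knockout. The knockout over WT ratio of these relative levels was between 1.02 and 4.81 for 14 markers and 0.646 for Cldn4. The part of epithelium in the fall of Nos2 was not tested. Among other cell types, 8 of 10 endothelial markers and 6 of 10 fibroblast markers were listed and higher, with median log2 ratios of 1.64 and 1.45. The mast cell and eosinophil list held 11 genes, with 3 higher and 2 lower.

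Listed genes with a pattern most like each member were found by the distance between genes over 2 values, the log2(FPKM + 1) level in each genotype. This is a likeness of levels, and any gene that shares both levels is near. Nearest to Arg1 were Gm26825, a long noncoding RNA gene, with 59.0 FPKM in the knockout and 1.47 FPKM in WT (q = 0.00811 in the authors' deposited table), then Marco and the neutrophil collagenase gene Mmp8, at distances of 0.19, 0.36 and 0.53. Nearest to Marco were Gm26825, Arg1 and 8430408G22Rik (q = 0.0269 in the authors' deposited table), at distances of 0.23, 0.36 and 0.64. The deposited locus of 8430408G22Rik runs 17.6 kb past the annotated gene on one side and 21.2 kb on the other. Nearest to Chil3 were the immunoglobulin segment Ighv11-2, Ptgs2 and Apod, a lipid-binding protein gene, at distances of 0.37, 0.50 and 0.65. Nearest to Nos2 were Rmdn3, Ermp1 and Tmem98, at distances of 0.04, 0.07 and 0.10, and the deposited locus of Rmdn3 runs 24.2 kb past the annotated gene. Arg1 and Marco were near each other, at 0.36, while Chil3 lay 2.80 from Arg1 and 2.75 from Marco because its level was higher in both genotypes. Nos2 was between 4.53 and 5.05 from the other members.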

How the data were processed

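Colon RNA was taken up in Trizol and turned into libraries with a Vazyme mRNA-seq kit, per the labels' protocols. Whether the kit marks strand was not given in the sources used here. Per the submitters' processing notes, the tools and build include Bowtie 0.12.2, Cufflinks 2.2.1 and mm8, with no role stated. The deposited FPKM values, 1 per genotype, combine both samples of a genotype, per the file headers and the labels' descriptions. The p-value and q-value columns are the authors' own, from a test that was not given in the sources used here. Identifiers matched GENCODE M21 for 4116 of 4121 genes, and the members' loci match GRCm38, so coordinates are on GRCm38.

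Log2 ratios of Elf4-KO over WT were computed after adding 1 FPKM to both values, which understates the change of low genes, while folds used FPKM alone. No test between genotypes, normalization or interval could be computed. The members, 20 gene lists of 225 genes (121 listed) and the tests were chosen with earlier results of these data known. Named genes were the members, the 3 nearest genes of each and, in each list, all listed members up to 6 or else the 4 largest log2 ratios, where the higher value was 1 FPKM or more. Of the genes it named, 2 are not reported here. Genes outside it are said to be so, and Car1, Cd36, Scarb2, S100a9, Cldn4 and Epcam, used as points of comparison, were also chosen after their values were seen. Alternatives were other pseudocounts, centring on the table or on cell markers, and stricter limits on FPKM, q and fold. Functions were tested on simulated data. Sequence windows were matched exactly over GENCODE M21 transcripts. Python 3.11.15, numpy 2.4.6, pandas 2.3.3, Biopython 1.88 and matplotlib 3.10.9 were used.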

Additional observations from a re-analysis of the deposited data

How the results depend on the processing

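No paired analysis was possible because the values are pooled by genotype. Leaving out each sample was not run for the same reason, so the weight of a single sample cannot be judged. In place of a replicate spread, a shift of over 1.5 times is reported. Without a pseudocount the log2 ratio was 5.63 for Arg1 and 4.94 for Marco, and with 0.1 FPKM it was 5.53 for Arg1. Centred on the median of all listed genes, the log2 ratios of Arg1, Nos2, Chil3 and Marco were 5.61, -1.15, 5.53 and 5.11, and 0 of the 121 listed genes of the lists changed sign. Centred on the median of the macrophage markers they were 3.74, -3.02, 3.66 and 3.24. Centring on neutrophil and on epithelial markers was added after the data were seen. On neutrophil markers they were 1.87, -4.89, 1.79 and 1.36, and on epithelial markers 8.32, 1.56, 8.24 and 7.82, so Nos2 turned. The Arg1 to Nos2 ratio in WT was 0.0585 with 1 FPKM added and 0.112 over the families' sums (also added later), and its contrast 108-fold and 43.9-fold. Keeping only differences of at least 4-fold left by construction 533 higher and 1011 lower genes in the table. In the lists it left 6 higher scavenger receptors (median log2 ratio 2.58) and 4 higher and 2 lower classical activation genes. It also left 2 lower interferon gamma genes and 3 lower synthase cofactor and regulator genes. Among the interleukin-4 and interleukin-13 genes and among the Arg1 regulators it left 1 lower and 0 higher genes each. In both lists this was the same gene, Klf4 (log2 ratio -2.13). Of the cell markers it left 2 higher macrophage markers (median 2.28), 2 lower T and NK cell markers (median -1.997), 3 higher endothelial markers, 1 higher fibroblast marker (2.38) and 1 higher mast cell or eosinophil marker. It left 0 higher nitric oxide synthases, whose median became that of Nos2, -1.91, and 0 genes of arginine synthesis, arginine transport and ornithine use. With at least 5 FPKM, 2 transporter genes were higher, and 1 ornithine gene was lower, with a median of 0.0030. This count and median were the same with q of at most 0.01, where 1 arginase was left, with a median of 4.85. The mast cell and eosinophil median, 0.72, became -2.71 with at least 5 FPKM or 4-fold and -0.83 with q of at most 0.01.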

Other observations

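Other myeloid genes were looked at in 3 lists added after the table was seen. Of 12 myeloid C-type lectin and Trem receptor genes, 5 were listed and all 5 were higher in the knockout, with a median log2 ratio of 2.19. Trem1, an amplifying receptor of neutrophils and monocytes, had 22.4 FPKM in the knockout and 1.91 FPKM in WT. Clec4d, a lectin receptor gene, had 125.6 FPKM in the knockout and 12.5 FPKM in WT, and Clec4e, for the receptor Mincle, had 46.3 FPKM in the knockout and 9.40 FPKM in WT. Of 12 Fc gamma and complement receptor genes, 8 were listed and all 8 were higher, with a median of 1.28. Itgam and Fcgr1 are also counted among the monocyte and macrophage markers, so these lists are not separate. The receptor gene C5ar1 rose 5.20-fold to 60.95 FPKM and Fcgr3 rose 2.88-fold to 193 FPKM. Of the listed genes in the table as a whole, 48.0% were higher.

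Of 14 lysosome and lipid handling genes known from macrophages, 7 were listed, 6 higher and 1 lower, with a median log2 ratio of 1.80. Spp1, the osteopontin gene, had 61.2 FPKM in the knockout and 4.60 FPKM in WT. The protease gene Ctsl had 564 FPKM in the knockout and 115 FPKM in WT. Apoe had 1974 FPKM in the knockout and 927 FPKM in WT (q = 0.00564 in the authors' deposited table). Lgals3, a galectin gene also made by epithelium, fell to 292 FPKM in the knockout, against 1066 FPKM in WT. All of these genes are made by more than 1 cell type, and which cells carried the changes was not measured.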
